A study of Mus musculus with 6 samples.

Results

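Expression of 8 genes of zinc handling was examined in mouse retina after optic nerve crush (ONC). They were chosen by gene symbol from the 35485 genes of the tables and comprised the metallothioneins Mt1, Mt2 and Mt3, the metal-responsive transcription factor Mtf1, the zinc exporters Slc30a1 and Slc30a3, and the importers Slc39a10 and Slc39a14. All 8 passed the filter on low values. In the ONC group the optic nerve of wild type C57BL/6 mice aged 12 weeks was crushed for 10 seconds at 2 mm behind the eye, and in the sham group the nerve was exposed and left intact. Whole retinas were taken 2 days after surgery. Each group had 3 samples, and each sample was a pool of RNA from 6 retinas of 6 mice, so that p-values describe the spread between pools and not between animals.

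Metallothioneins are small cysteine-rich proteins that bind zinc and copper and buffer oxidants. Mt1 and Mt2 are made in most tissues and, in the nervous system, above all in glia, while Mt3 is enriched in neural tissue. When free zinc rises in the cell, MTF1 binds metal response elements (MREs) in promoters and switches on Mt1, Mt2 and the exporter gene Slc30a1. Transporters of the ZnT family (Slc30 genes) move zinc out of the cytosol, and those of the ZIP family (Slc39 genes) move it in. Retinal zinc is known to be released after optic nerve injury, and ZnT3, the product of Slc30a3, is the transporter that loads zinc into synaptic vesicles.

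None of the 8 genes changed at the threshold used, and the groups overlapped for each of them. For 21.8% of all genes tested the groups did not overlap on exon reads scaled by trimmed mean of M-values (TMM). A gene was called changed if it had a false discovery rate (FDR) under 0.1 and differed more than 1.5-fold in exon reads by edgeR's quasi-likelihood test with Benjamini-Hochberg adjustment over 13670 genes. By this rule 0 of 8 genes were called, against 1.66% of all genes tested (0.827% higher and 0.834% lower in ONC). DESeq2 likewise called 0 of 8, against 1.78% of all genes (0.871% higher and 0.907% lower). At such shares a count of 0 among 8 genes does not set them apart from other genes. At an unadjusted p under 0.05 in edgeR, 1 gene was higher (Mt2, against 7.73% of all genes) and 1 was lower (Mt3, against 8.99%). The 95% intervals of the log2 fold change lay within 1.5-fold in both directions for 5 of the 8 genes, Mt1, Mtf1, Slc30a1, Slc39a10 and Slc39a14. Those of Mt2, Mt3 and Slc30a3 reached beyond it. RNA of whole retinas was measured, so that fewer cells of a type and less RNA per cell cannot be told apart.

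The 3 metallothionein genes that were expressed lie side by side on chromosome 8. Mt3 occupied chr8:94152607-94154148, Mt2 chr8:94172618-94173567 and Mt1 chr8:94179089-94180327 in the tables, in coordinates that match GRCm38. Mt2 and Mt1 were 5521 bases apart, and Mt3 and Mt2 18469 bases apart. Their upstream sequences, the 250 bases before the annotated start, are shown as a description. They were taken from RefSeq (GRCm38.p6), and capitals mark the MRE core, TGCACNC or TGCGCNC on either strand.
Mt1 upstream window, chr8:94178839-94179088, plus strand: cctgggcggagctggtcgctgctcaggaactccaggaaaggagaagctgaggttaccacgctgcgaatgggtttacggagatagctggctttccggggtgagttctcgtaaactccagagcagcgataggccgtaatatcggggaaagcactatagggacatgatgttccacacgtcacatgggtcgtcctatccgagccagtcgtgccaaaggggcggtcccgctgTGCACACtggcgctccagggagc
Mt2 upstream window, chr8:94172368-94172617, plus strand: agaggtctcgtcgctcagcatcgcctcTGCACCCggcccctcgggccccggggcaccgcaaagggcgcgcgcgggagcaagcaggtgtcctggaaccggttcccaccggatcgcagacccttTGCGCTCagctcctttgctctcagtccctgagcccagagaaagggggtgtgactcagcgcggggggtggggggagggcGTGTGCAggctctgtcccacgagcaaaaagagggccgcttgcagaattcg
Mt3 upstream window, chr8:94152357-94152606, plus strand: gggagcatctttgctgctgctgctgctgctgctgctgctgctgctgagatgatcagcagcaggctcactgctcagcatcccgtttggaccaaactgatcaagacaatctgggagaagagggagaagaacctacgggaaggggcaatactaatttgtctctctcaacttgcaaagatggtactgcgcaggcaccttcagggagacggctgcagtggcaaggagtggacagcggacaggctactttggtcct
The Mt2 window held 3 cores, which began 223, 128 and 50 bases before the start, the last of them on the minus strand. The Mt1 window held 1 core at 23 bases before the start, and the Mt3 window held 0. Of 32851 promoter windows of this length, 21.4% held at least 1 core and 1.26% at least 3. With the 50 bases after the start included, the counts were 3 for Mt1, 4 for Mt2 and 1 for Mt3. At least 3 cores were found in 1.97% of all windows of 300 bases. The counts thus depended on where the window ended, most of all for Mt1. Mt2 also held a match to the AP-1 motif TGANTCA and a match to the antioxidant response element TGACNNNGC, both at 79 bases before the start and overlapping each other. These motifs occur in 6.75% and 10.2% of all windows. The STAT motif TTCNNNGAA, found in 7.02% of windows, had no match in the 3 sequences. RefSeq promoters were found for 7 of the 8 genes. Slc30a1 held 1 MRE core, and Mtf1 and Slc39a10 held 0. Slc30a3 held 1 core in its window at start 31108244 and 0 at start 31093527, which is the start of the deposited gene position. These matches describe the letters only, and a link between them and the levels of the genes was not tested.

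Per length of transcript, Mt1 had the highest level of the 8 genes and Slc30a3 the lowest. In RPKM, exon reads scaled by exon length and by all reads mapped to genes, averaged over all samples, the order was Mt1 (68.4), Mt2 (29.1), Mt3 (20.03), Slc39a10 (8.07), Slc30a1 (5.62), Slc39a14 (5.60), Mtf1 (5.26) and Slc30a3 (1.195). Mt1 was above Mt2 in every sample. Mt2 and Mt3 overlapped in the sham group, whereas all ONC samples had more Mt2 than Mt3. Slc30a1, Slc39a14 and Mtf1 overlapped with each other in both groups, so that their order was not resolved. RPKM values of most genes were slightly higher in ONC, since the divisor includes intron reads, which took a larger part of the sham libraries. Groups did not overlap on RPKM, with ONC higher, for 25.4% of all genes tested, and with ONC lower for 3.45%. Among the 8 genes both counts were 0.

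**Figure D1:**
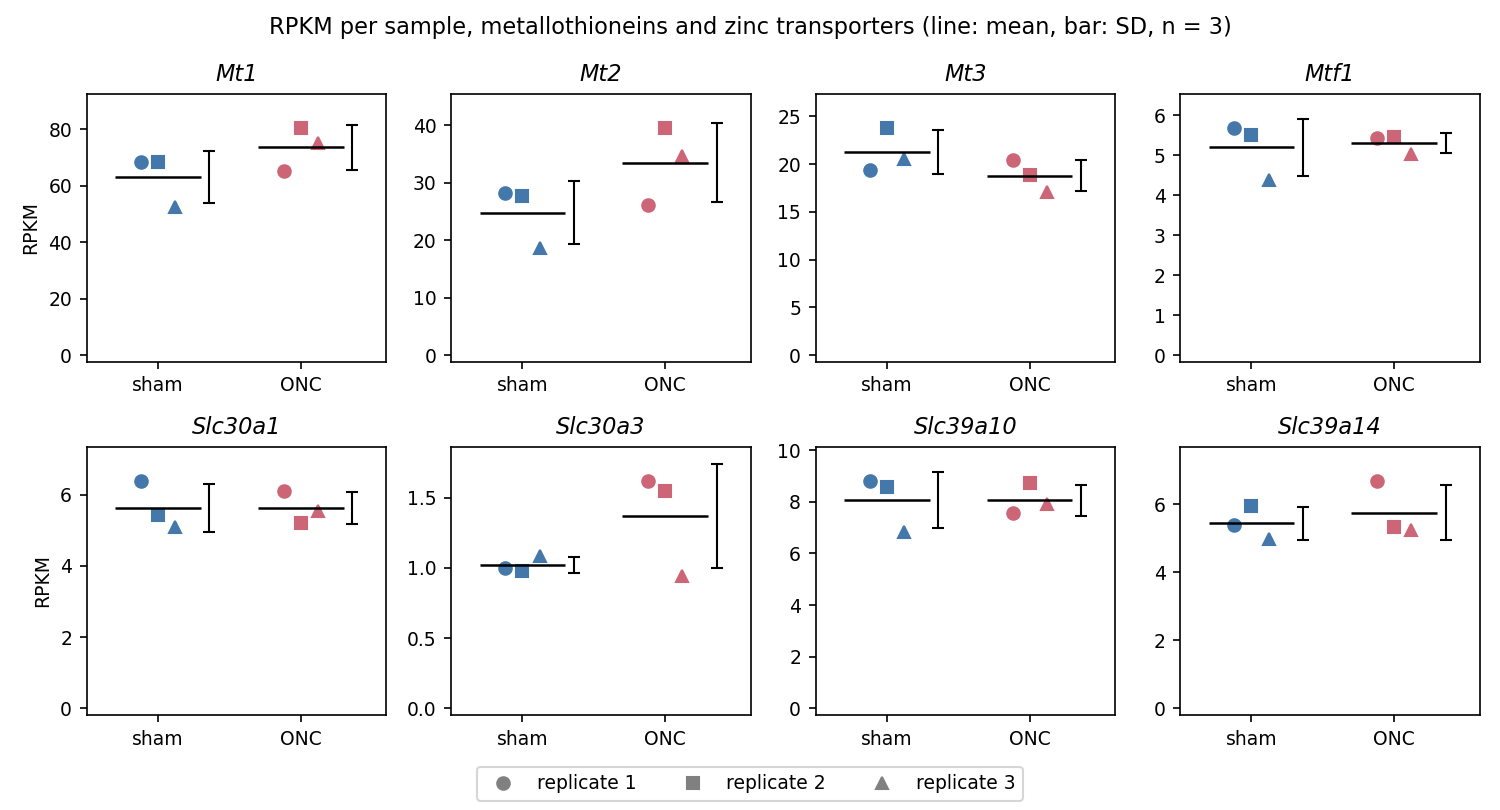
RPKM (y axis, from 0) of the 8 genes in 3 sham and 3 ONC samples. Each point is 1 pooled sample, with the marker giving the replicate number of the label, the line the mean and the bar the SD. The groups overlap in all 8 panels, and on RPKM sham replicate 3 is the lowest sample for Mt1, Mt2, Mtf1, Slc30a1, Slc39a10 and Slc39a14. On exon reads scaled by trimmed mean of M-values (TMM) it is the lowest only for Mt1 and Mt2, and an ONC sample is the lowest for the others named.

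Mt1 RPKM was 68.5, 68.5 and 52.5 in the sham samples and 65.1, 80.7 and 75.1 in the ONC samples. ONC replicate 1 lay below 2 of the sham samples, and sham replicate 3 was lowest of all. Group means were 63.2 ± 9.26 (SD, n = 3) in sham and 73.6 ± 7.88 (SD, n = 3) in ONC. On exon reads scaled by trimmed mean of M-values (TMM) the log2 fold change was 0.10 (SE 0.09, 95% interval -0.09 to 0.30), with FDR 0.623 in edgeR's quasi-likelihood test with Benjamini-Hochberg adjustment. A rise of Mt1 by 1.5-fold or more lay outside this interval.

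Mt2, the other widely expressed metallothionein, showed the largest positive value of the 8 genes. Its RPKM was 28.2, 27.6 and 18.6 in sham and 26.1, 39.6 and 34.7 in ONC, from 253 to 548 exon reads per sample, all of them mapped uniquely. ONC replicates 2 and 3 exceeded all sham samples, while ONC replicate 1 lay below 2 of them. Means were 24.8 ± 5.404 (SD, n = 3) and 33.5 ± 6.85 (SD, n = 3). The log2 fold change was 0.31 (SE 0.15, 95% interval 0.0046 to 0.62), with an unadjusted p of 0.0470 and FDR 0.292 by edgeR with Benjamini-Hochberg adjustment. It was 0.18 without sham replicate 3 and 0.19 without ONC replicate 2, and 0.45 without ONC replicate 1, where the FDR was 0.0315 but the change stayed under 1.5-fold.

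Mt3, the neural metallothionein, had the opposite sign. Its RPKM was 19.4, 23.8 and 20.6 in sham and 20.4, 18.8 and 17.1 in ONC. ONC replicates 2 and 3 lay below all sham samples, and ONC replicate 1 lay between them. Means were 21.3 ± 2.29 (SD, n = 3) and 18.8 ± 1.65 (SD, n = 3). The log2 fold change was -0.30 (SE 0.14, 95% interval -0.59 to -0.0083), with an unadjusted p of 0.0444 and FDR 0.284 by edgeR with Benjamini-Hochberg adjustment. Leaving out single samples gave values between -0.39 and -0.24.

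Ratios between metallothioneins within a sample do not depend on how libraries are scaled. The ratio of Mt2 to Mt3 RPKM, chosen after the values were seen, was 1.46, 1.16 and 0.903 in sham and 1.28, 2.10 and 2.03 in ONC. The groups overlapped through the first sample of each, and an exact two-sided permutation test gave p = 0.2, where 0.1 is the smallest value that 3 against 3 samples allow. Mt1 made up 72.0% ± 1.63 (SD, n = 3) of the Mt1 and Mt2 RPKM in sham and 68.9% ± 2.22 (SD, n = 3) in ONC (exact permutation p = 0.3). The summed RPKM of the 3 genes was 109 ± 15.4 (SD, n = 3) in sham and 126 ± 13.8 (SD, n = 3) in ONC (exact permutation p = 0.3). Unlike the ratios, the sum depends on the scaling. The difference of 16.6 in the sum became 9.001 with TMM-scaled exon reads as the divisor in place of all gene reads (exact permutation p = 0.4). All 3 measures depended on single samples. The difference in the sum was 7.84 without sham replicate 3. With 1 sample left out, the difference in the Mt2 to Mt3 ratio, 0.63 with all samples, ran from 0.48 to 0.89. That in the Mt1 share, -3.02 with all samples, ran from -4.24 to -2.08.

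Mt1 and Mt2 varied together from sample to sample. On log2 TMM-scaled counts (CPM) their Pearson correlation over the 6 samples was 0.979, and both were lowest in sham replicate 3 and highest in ONC replicate 2. Mt3 had correlations of -0.62 with Mt1 and -0.74 with Mt2. With 6 samples that share group and library, such values are a description only. Of 11805 genes with a mean RPKM above 1, those most like Mt1 were Ggnbp2 (0.996), Stk19 (0.992), Unc119b (0.991), Ccdc167 (0.989) and Crabp1 (0.987). Those most like Mt2 were Rbm5 (0.997), Acsl3 (0.994), Prosc (0.988), Tmed2 (0.986) and Xrcc5 (0.986). None of these genes was called by edgeR, and their log2 fold changes ran from 0.05 to 0.20.

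**Figure D2:**
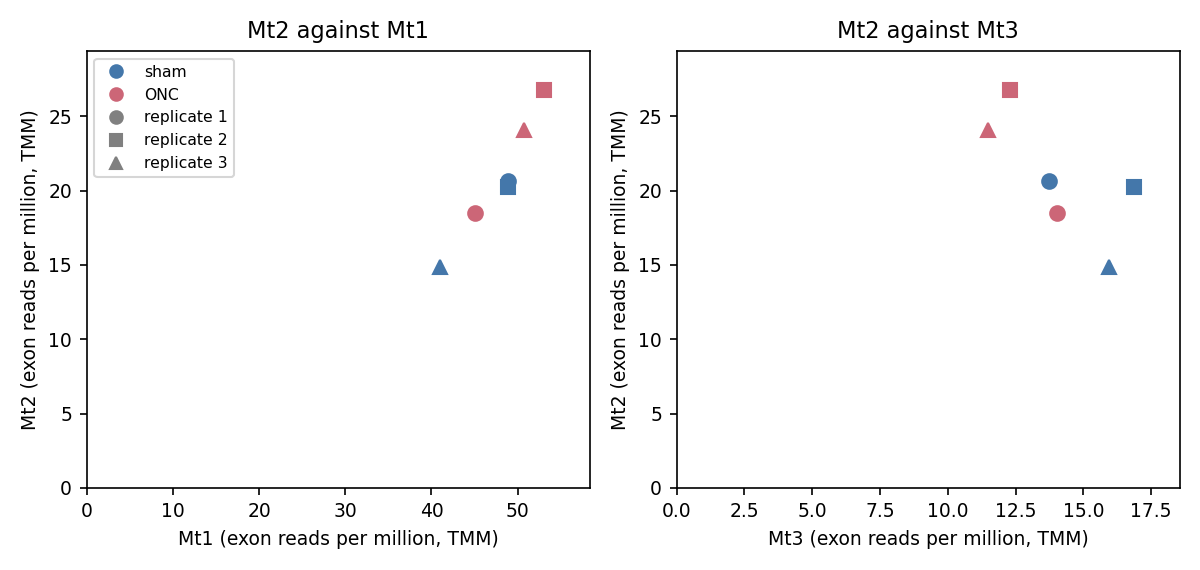
TMM-normalized exon counts (CPM) of Mt2 (y axis) against Mt1 (left) and against Mt3 (right), with 1 point per sample, coloured by group and shaped by replicate number. Mt1 and Mt2 lie along 1 line with sham replicate 3 at the lower end, and ONC replicates 2 and 3 combine the highest Mt2 with the lowest Mt3.

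Mtf1, the zinc sensor that drives metallothionein transcription, was level between the groups. Its RPKM was 5.69, 5.52 and 4.385 in sham and 5.44, 5.47 and 5.03 in ONC. All ONC samples fell within the sham range on RPKM, while on TMM CPM ONC replicate 3 (47.8) lay just below the lowest sham sample (48.2). The log2 fold change was -0.09 (SE 0.09, 95% interval -0.26 to 0.09). Slc30a1 encodes ZnT1, the exporter of the plasma membrane and a target of MTF1. Its RPKM was 6.39, 5.42 and 5.08 in sham and 6.09, 5.21 and 5.55 in ONC, with a log2 fold change of -0.12 (SE 0.10, 95% interval -0.33 to 0.09). On RPKM the ONC samples again fell within the sham range. On TMM CPM, ONC replicates 2 and 3 of Slc30a1 (33.1 and 36.2) lay below all sham samples (37.3 to 43.9). Of its exon reads 93.5% mapped uniquely.

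Slc30a3 was the least expressed and the least certain of the 8 genes. Its RPKM was 1, 0.98 and 1.08 in sham and 1.62, 1.55 and 0.944 in ONC, from 46, 47 and 53 exon reads in sham and 82, 77 and 49 in ONC. ONC replicates 1 and 2 stood above all sham samples and ONC replicate 3 below them. The log2 fold change was 0.30 (SE 0.30, 95% interval -0.34 to 0.93), and it ranged from 0.14 without ONC replicate 1 to 0.50 without ONC replicate 3. The interval included changes of more than 1.5-fold.

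The importers showed no call either. Slc39a10 encodes ZIP10, an importer of the plasma membrane, and had RPKM of 8.81, 8.59 and 6.83 in sham and 7.55, 8.73 and 7.90 in ONC. All ONC samples lay inside the sham range on RPKM, while on TMM CPM ONC replicate 1 (47.8) lay below the lowest sham sample (48.8). The log2 fold change was -0.12 (SE 0.08, 95% interval -0.30 to 0.06). Slc39a14 encodes ZIP14, which carries zinc, iron and manganese and is known to be induced by interleukin-6 in the liver. Its RPKM was 5.404, 5.95 and 4.98 in sham and 6.69, 5.35 and 5.23 in ONC. On this scale ONC replicate 1 was highest of all, and ONC replicates 2 and 3 fell in the sham range. On TMM CPM, ONC replicates 2 and 3 (33.8 and 34.0) lay below all sham samples (37.0 to 40.8). The log2 fold change was -0.04 (SE 0.11, 95% interval -0.26 to 0.19). The small values of these genes did not all keep their sign. Mtf1 and Slc39a14 turned positive with the scaling of RPKM, Slc39a14 also without 1 of several samples, and Slc30a1 and Slc39a10 only in limma fits on log2 RPKM.

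Reads that cross an intron-exon border come from RNA that has not been spliced at that border, or from genomic DNA, and are part of the exon reads. They were examined after the values had been seen. Mt1 had 0, 1 and 1 such reads in sham and 7, 13 and 5 in ONC. Mt2 had 2, 2 and 0 in sham and 12, 7 and 3 in ONC. In both genes every ONC sample was above every sham sample, although exon reads of both overlapped. Both genes passed the filter of a mean of 5 such reads only through the ONC group (means 0.667 and 1.33 in sham, 8.33 and 7.33 in ONC), so a difference in this direction was built into their selection and neither the separation nor the p-values are support for one. Groups did not overlap, with ONC higher, for 5.02% of the 9662 genes tested on these reads and, with ONC lower, for 7.77%. Mt3 had 1, 9 and 3 border reads in sham and 0, 8 and 11 in ONC, with no separation. In edgeR's quasi-likelihood test with Benjamini-Hochberg adjustment neither gene was called even so, with FDR 0.705 for Mt1 (unadjusted p 0.0237) and 0.829 for Mt2 (unadjusted p 0.1001). That test called 0 of 9662 genes, as did DESeq2, while an unadjusted p under 0.05 was reached by 613 genes (6.34%), 1.96% higher and 4.39% lower. Border reads were 1.96% to 2.00% of exon reads in sham and 1.62%, 2.07% and 2.22% in ONC. ONC replicate 1, lowest in this share, had 7 border reads on Mt1 and 12 on Mt2. The counts are small, and a part of DNA or of overlapping transcripts was not tested.

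**Figure D3:**
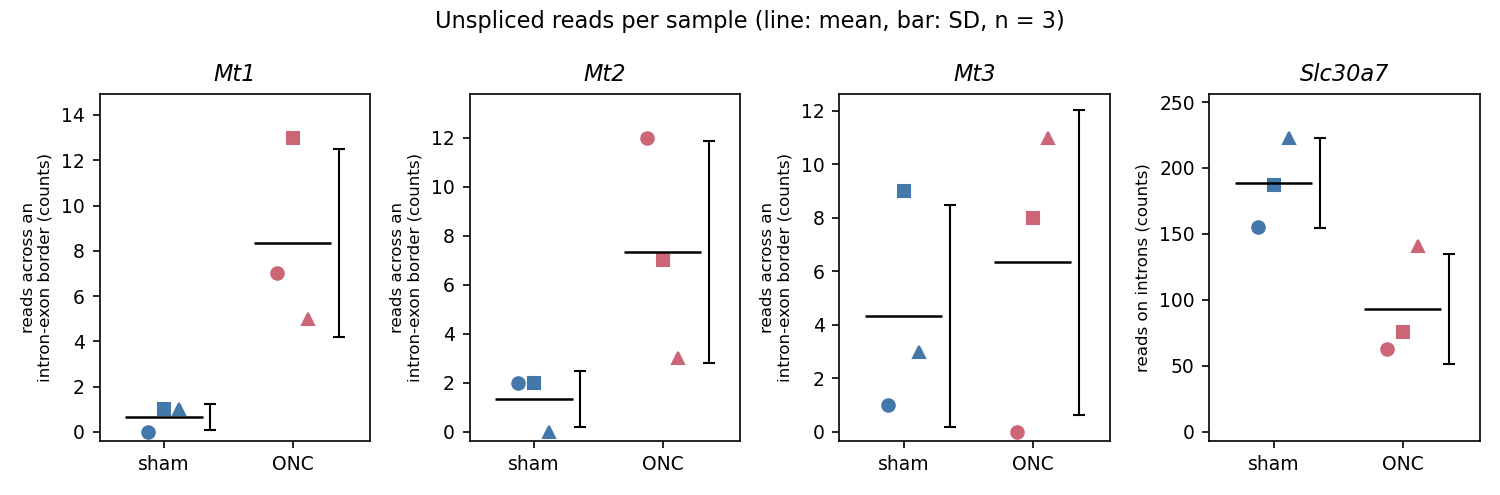
Reads across an intron-exon border of Mt1, Mt2 and Mt3 and reads on introns of Slc30a7 (y axes, counts from 0) in 3 sham and 3 ONC samples, with the mean as a line and the SD as a bar. For Mt1 no sham sample has more than 1 border read and no ONC sample fewer than 5, Mt3 is mixed, and Slc30a7 intron reads are lower in all ONC samples.

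Reads lying wholly on introns were enough for a test in 3 of the 8 genes. Mtf1 had 129, 178 and 150 in sham and 89, 134 and 132 in ONC, with a log2 fold change of -0.34 (SE 0.22). Slc39a14 had 51, 111 and 84 in sham and 44, 41 and 63 in ONC, with a log2 fold change of -0.70 and FDR 0.272 by edgeR with Benjamini-Hochberg adjustment. Slc39a10 had 435 to 489 in sham and 440 to 587 in ONC, with a log2 fold change of 0.21 (SE 0.15). None of the 3 was called, against 2.66% of the 13821 genes tested on intron reads (0.499% higher, 2.16% lower). At an unadjusted p under 0.05 in edgeR, Slc39a14 was lower and none was higher, against 10.7% and 6.65% of all genes (17.3% in either direction).

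The wider set of zinc genes, 29 metallothioneins, ZnT and ZIP genes with Mtf1, also held no call on exon reads. Of the 29, 25 passed the filter on low values. On exon reads 0 were called by edgeR, beside 1.66% of all genes, and 0 by DESeq2, beside 1.78%. At an unadjusted p under 0.05 in edgeR, 2 of 25 were higher (Mt2 and Slc39a1), beside 7.73% of all genes, and 1 lower (Mt3), beside 8.99%. The median log2 fold change was 0.06, beside 0.01 over all genes, and the 95% interval lay within 1.5-fold for 16 of 25. On TMM CPM 5 of 25 genes (20%) did not overlap between groups, beside 21.8% of all genes. Of them 3 were higher (11.0% of all genes) and 2 lower (10.8%). Mt4, known from stratified epithelia, had 0 exon reads in all 6 samples, and Slc30a8, Slc39a4 and Slc39a5 were also below the filter.

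ZnT genes centred on 0. Of 9 tested, 4 had a positive and 5 a negative log2 fold change, with a median of -0.02. Slc30a9, the ZnT gene with the highest level, had RPKM of 45.3 ± 2.55 (SD, n = 3) in sham and 48.7 ± 1.22 (SD, n = 3) in ONC, with a log2 fold change of -0.02 (95% interval -0.13 to 0.10). Slc30a2 had the lowest value, -0.63 (95% interval -1.42 to 0.17), from 27 to 42 exon reads per sample. Its ONC samples lay below all sham samples, but FDR was 0.431 in edgeR with Benjamini-Hochberg adjustment.

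Of 12 ZIP genes tested, 8 had a positive log2 fold change and the median was 0.12. Slc39a1, which encodes ZIP1 of the plasma membrane, had RPKM of 8.29, 7.91 and 7.29 in sham and 9.64, 10.7 and 10.0 in ONC. All ONC samples lay above all sham samples, 86.6% of exon reads mapped uniquely, and the log2 fold change was 0.25 (SE 0.10, 95% interval 0.04 to 0.46), with FDR 0.213 in edgeR with Benjamini-Hochberg adjustment. Slc39a7, whose product releases zinc from the endoplasmic reticulum, had RPKM of 25.5 ± 1.85 (SD, n = 3) in sham and 30.1 ± 0.705 (SD, n = 3) in ONC and a log2 fold change of 0.11 (95% interval -0.03 to 0.26). Slc39a3, encoding ZIP3, had RPKM of 24.2 ± 0.511 (SD, n = 3) and 24.4 ± 0.214 (SD, n = 3) and a log2 fold change of -0.11 (95% interval -0.25 to 0.02).

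**Figure D4:**
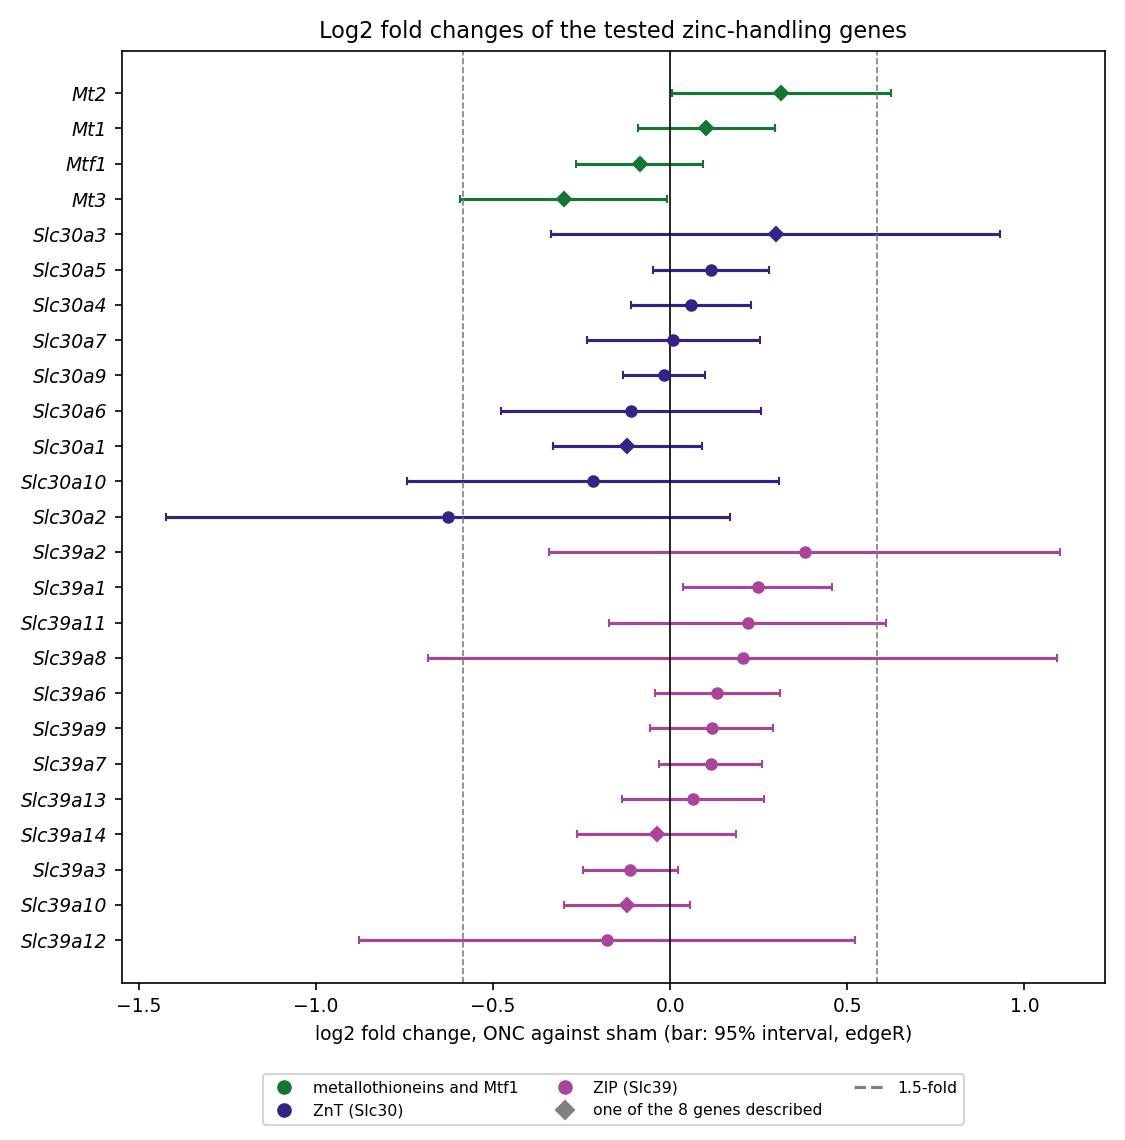
Log2 fold change of ONC against sham on exon reads (x axis) for the 25 zinc genes tested, with 95% intervals from edgeR, grouped by family and with diamonds for the 8 genes. Dashed lines stand at 1.5-fold, and no point passed both thresholds. The intervals of Mt2 and Slc39a1 lie above 0 and that of Mt3 below it before adjustment.

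Slc30a7, a ZnT gene of the secretory pathway, was the only zinc gene called on intron reads among 17 tested, beside 2.16% of all genes called lower. It had 155, 187 and 223 intron reads in sham and 63, 76 and 141 in ONC, and every ONC sample was below every sham sample. The log2 fold change was -1.01 with FDR 0.0717 by edgeR's quasi-likelihood test with Benjamini-Hochberg adjustment. The call was lost without sham replicate 2 or 3 and without any 1 of the ONC replicates, with FDR from 0.117 to 0.326, while the log2 fold change in these fits stayed between -1.30 and -0.88. On exon reads Slc30a7 had a log2 fold change of 0.01 (95% interval -0.24 to 0.25).

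Lists of neighbouring pathways held single called genes. Among 17 genes of copper and iron handling 1 was called, Hmox1, the haem oxygenase, beside 0.827% of all genes called higher. Its RPKM was 1.66, 1.09 and 1.76 in sham and 5.52, 5.43 and 5.58 in ONC (log2 fold change 1.75, FDR 2.94e-05 by edgeR with Benjamini-Hochberg adjustment). The list did not rise as a whole, with a median log2 fold change of -0.05 and 6 of 17 genes above 0. At an unadjusted p under 0.05 in edgeR, 2 of the 17 were higher (Hmox1 and Ftl1), beside 7.73% of all genes. Tfrc, at a log2 fold change of -0.22, was the 1 that was lower, beside 8.99%. Among 9 known MTF1 targets 1 was called, Pgf, a growth factor of the VEGF family, beside the same 0.827% of all genes. It had 3, 3 and 1 exon reads in sham and 18, 17 and 14 in ONC (FDR 0.0681 by edgeR with Benjamini-Hochberg adjustment). Pgf passed the filter of 0.3 RPKM only through the ONC group (mean RPKM 0.063 in sham and 0.411 in ONC), so that its call is given as a description of this gene and not as support for the list. The other 8 MTF1 targets, Mt1, Mt2, Slc30a1 and Slc39a10 among them, were not called. At an unadjusted p under 0.05 in edgeR, 4 of 9 were higher (Mt2, Pgf, Ndrg1 and Gclc) and 0 lower, beside 7.73% and 8.99% of all genes. This count includes Pgf, which was let in by its ONC values, and is likewise not support for the list. Ndrg1 had a log2 fold change of 0.17 and Gclc 0.20.

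Glucocorticoids and STAT3 are also known inducers of Mt1 and Mt2. No gene of the glucocorticoid list was called (8 tested, median log2 fold change 0.06), with 2 genes higher at an unadjusted p under 0.05 in edgeR (7.73% of all genes). Dusp1, a phosphatase gene, came nearest, with RPKM of 7.71 ± 0.307 (SD, n = 3) in sham and 12.5 ± 0.751 (SD, n = 3) in ONC, a log2 fold change of 0.57 and FDR 0.00244 by edgeR with Benjamini-Hochberg adjustment, under the fold limit. Sgk1 and Ddit4, the most expressed of the list, had log2 fold changes of 0.19 and 0.09. In the list of STAT3 and glial reactivity 0 of 12 tested genes were called, and all 12 had a log2 fold change above 0, beside 7147 of all 13670 genes, with a median of 0.23 and 5 higher at an unadjusted p under 0.05 in edgeR, beside 7.73% of all genes. Stat3 had a log2 fold change of 0.32 with FDR 0.0258 by edgeR with Benjamini-Hochberg adjustment, Vim 0.18 and Il6st 0.01. Dusp1 and Stat3 were named after their values had been seen.

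Cell type markers gave the setting of these values. Rod markers summed to RPKM of 20313 to 21421 in sham and 22231 to 23218 in ONC, the highest sums of any marker list. These sums carry the scaling of RPKM, and on TMM-scaled reads the rod markers had a median log2 fold change of -0.03, with 2 of 6 above 0. Over all genes tested, edgeR called 0.827% higher and 0.834% lower in ONC, and 7.73% and 8.99% reached an unadjusted p under 0.05. Of 8 retinal ganglion cell markers 4 were called lower in ONC, with Pou4f2 at -1.39, Sncg at -0.95 and Rbpms at -0.82 on the log2 scale. At an unadjusted p under 0.05 in edgeR, 7 of the 8 were lower and 1 was higher, Slc17a6 at 0.26, with all ONC samples above all sham samples. Of 8 microglia and macrophage markers 3 were called higher, with Cd68 at 1.497, Itgam at 0.76 and C1qa at 0.59. At an unadjusted p under 0.05 in edgeR, 5 were higher and 0 lower, and Aif1 had the only negative value (-0.32). Cd68 overlapped between the groups, with RPKM of 1.12, 0.663 and 0.405 in sham and 0.941, 2.51 and 3.25 in ONC. Its FDR was 0.0912 by edgeR with Benjamini-Hochberg adjustment. Müller glia are known to express metallothioneins. None of their 8 markers was called, with 1 higher and 1 lower at an unadjusted p under 0.05 in edgeR, and the markers summed to RPKM of 862 to 979 in sham and 944 to 989 in ONC. None of 4 tested astrocyte markers, 5 endothelial, 5 pigment epithelial, 6 rod and 2 oligodendrocyte markers was called. At an unadjusted p under 0.05 in edgeR, 2 rod markers were higher and 1 lower, and 1 astrocyte marker was higher. The part of any cell type in the values of the zinc genes was not tested.

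**Figure D5:**
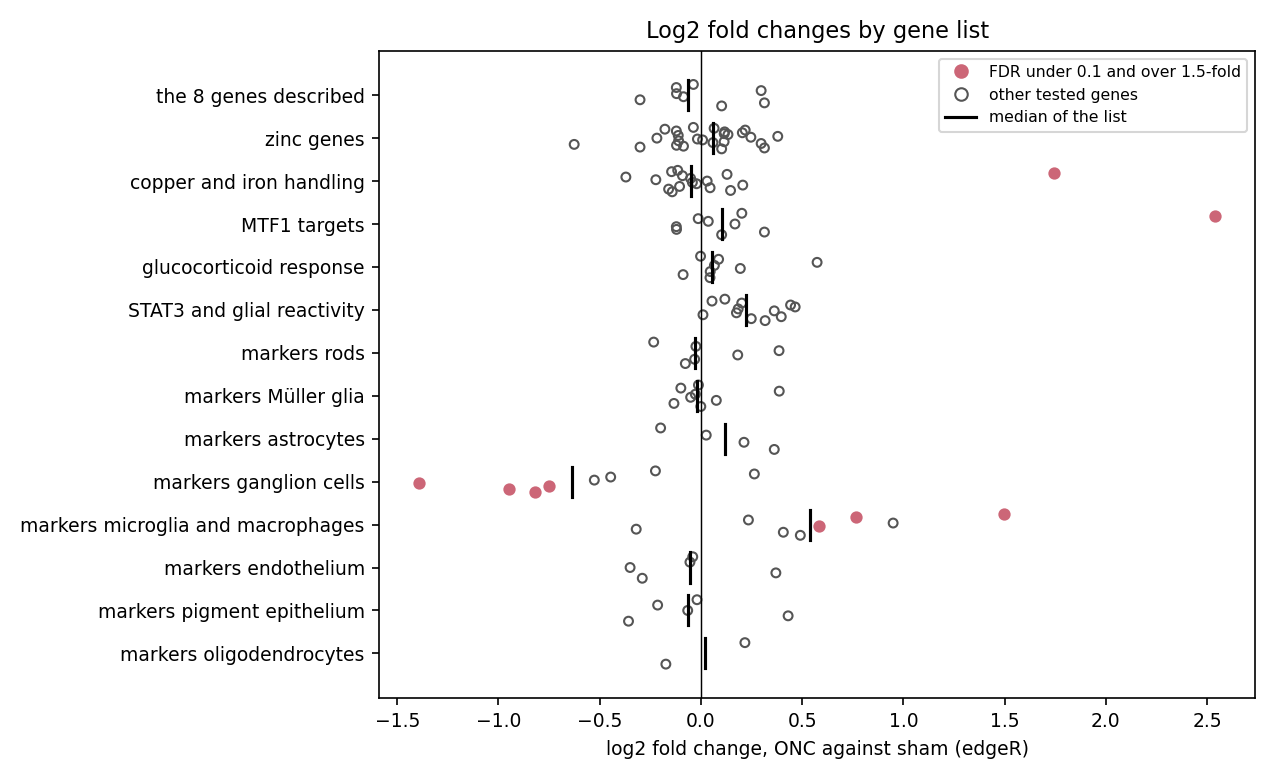
Log2 fold change of ONC against sham on exon reads (x axis) for the tested genes of each list, with 1 point per gene, filled where FDR was under 0.1 and the change above 1.5-fold, and a bar at the median of the list. The 8 genes and the 25 zinc genes hold no filled point. Ganglion cell markers hold 4 on the low side, beside 0.834% of all genes tested. Microglia and macrophage markers hold 3 on the high side, beside 0.827% of all genes tested.

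Across the 6 libraries, exon reads numbered 17343945 to 18349331 in sham and 20019818 to 20358008 in ONC. Exons took 70.9% to 76.6% of all gene reads in sham, lowest in replicate 3, and 78.5% to 80.4% in ONC. With the scaling of RPKM the median log2 fold change of all genes moved by 0.12, and 263 genes were called higher and 87 lower, beside 113 and 114 with TMM. On that scale Mt2 had a log2 fold change of 0.43 with FDR 0.0822 by edgeR with Benjamini-Hochberg adjustment, still under 1.5-fold.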

How the data were processed

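RNA of 6 pooled samples was sequenced as paired reads. Mapping was done by the authors in CLC Genomics Workbench with up to 2 mismatches, and they deposited read counts per gene (exons, whole gene, exon-exon and intron-exon reads, unique and total) and RPKM values, in which exon reads are divided by all reads mapped to genes. The submitters' notes name mm9, but for 24 of 29 zinc genes the start or end in the tables equals RefSeq GRCm38.p6. Groups and replicate numbers came from the sample labels, where ONC is written NC. Intron reads were taken as gene reads minus exon reads. The group means deposited beside the samples were not used.

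Genes with a mean RPKM above 0.3 in a group were tested on total exon reads with edgeR 4.0.16 (TMM, glmQLFit and glmQLFTest, group as the only term) in R 4.3.3, after the procedure had been tested on simulated data. Intron reads needed a mean of 10 and intron-exon reads a mean of 5 in a group. The SE of a log2 fold change was derived from its F statistic. Alternatives used DESeq2 1.42.0 and limma 3.58.1. Single values were compared by exact two-sided permutation tests. Likeness was the Pearson correlation of log2 TMM CPM with a pseudocount of 0.5. Python 3.11.15 and matplotlib 3.10.9 served for motifs and figures. The difference between replicates exceeded sampling noise in all pairs, so no library was counted as a duplicate.

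The 8 genes, the gene lists and the tests were chosen with earlier results of these data known. Named were the 8 genes, zinc genes called on exon or intron reads, the 5 zinc genes of highest RPKM, the genes of each other list with the 3 largest changes among those called or, with none called, the 2 of highest RPKM, and the 5 genes most like Mt1 and Mt2. The highest markers of cell types with no call are given only within the sums. Slc39a1, Slc39a2, Slc30a2, Slc17a6, Ndrg1, Gclc, Ftl1, Tfrc, Dusp1, Stat3 and Aif1 were added after their values were seen. Counts below about 10 reads limit what can be said of single genes.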

Additional observations from a re-analysis of the deposited data

How the results depend on the processing

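The 8 genes and the 25 tested zinc genes gave 0 calls on exon reads under all 19 alternatives, and 0 of the 8 were called on intron reads or intron-exon reads under 11. The number of called genes, 227, became 350 with the scaling of RPKM, 342 with total gene reads and 833 without the fold limit, and 153 to 353 when 1 sample was left out (353 without ONC replicate 1). The summed RPKM of Mt1, Mt2 and Mt3, 16.6 higher in ONC, differed by 7.84 to 23.8 when 1 sample was left out and by 9.001 with TMM-scaled exon reads as the divisor. Signs of small values turned. Mtf1 became 0.032 with the scaling of RPKM and 0.039 and 0.032 with limma on log2(RPKM + 0.1) and log2(RPKM + 1). In the same limma fits Slc30a1 became 0.00076 and 0.00024, Slc39a10 became 0.0038 and 0.0028, and Slc39a14 became 0.074 and 0.064. Slc39a14 was also 0.081 with the scaling of RPKM, -0.18 without ONC replicate 1, 0.0086 without sham replicate 2, 0.026 without ONC replicate 2 and 0.023 without ONC replicate 3. Over 17 alternatives Mt1 ranged from 0.02 to 0.23, Mt2 from 0.18 to 0.45, Mt3 from -0.39 to -0.17 and Slc30a3 from 0.14 to 0.50, with no change of sign. The FDR of Mt2 ranged from 0.0315 to 0.695 and that of Mt3 from 0.109 to 0.575, by edgeR, DESeq2 or limma with Benjamini-Hochberg adjustment. With the replicate number as a block 222 genes were called, and 0 of the 8. Samples with the same number did not deviate together (correlations -0.059, -0.025 and 0.0070). The numbers are not described as pairs, and whether equal numbers shared a step of preparation was not tested. Intron-exon reads numbered 13 or fewer per sample for Mt1 and Mt2, and the FDR of Mt1 on them ranged from 0.568 to 0.989 over 10 alternatives. The causes of these differences were not tested.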

Other observations

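Slc39a2, a ZIP gene of low level, had 6, 6 and 13 reads across an intron-exon border in sham and 19, 20 and 16 in ONC, out of 41, 38 and 48 exon reads in sham and 36, 91 and 66 in ONC. The border reads did not overlap between the groups, as for 5.02% of the 9662 genes tested on them with ONC higher. RPKM overlapped (0.764, 0.68 and 0.84 in sham and 0.609, 1.57 and 1.09 in ONC). The gene was picked after its values were seen, so the separation is a description only. FDR on border reads was 0.861 by edgeR's quasi-likelihood test with Benjamini-Hochberg adjustment, and border reads made up a larger part of the exon reads of Slc39a2 than of Mt1 or Mt2. Slc30a3 had 2, 0 and 1 reads wholly on introns in sham and 9, 7 and 3 in ONC, too few for a test.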
